A study of Mus musculus with 6 samples.

Results

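Chemokines and their receptors were examined as a group of 33 mouse genes, 25 ligands and 8 receptors, taken by symbol from the 40481 genes of the deposited table of all pools. The 33 symbols match 34 entries, because *Ccl19* has a second entry on an unplaced scaffold, where no pool had a read. Of the 33 genes, 27 had enough reads to be tested among 17287 genes, and 6 ligands (*Ccl7*, *Ccl8*, *Ccl12*, *Ccl17*, *Ccl19* and *Cxcl5*) did not.

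Liver RNA was sequenced from 3 control and 3 *Mttp-IKO* pools, each pool holding RNA of 3 to 4 mice. The *Mttp-IKO* mice carried floxed *Mttp*, which encodes the microsomal triglyceride transfer protein, and a tamoxifen-inducible Cre under the *Villin* promoter, active in the intestinal epithelium. They received tamoxifen (50 µg/g daily for 5 days). For the controls the sources name vehicle-treated mice of the same alleles in one place and wild-type littermates in another. All mice were male, of C57BL/6 background, and were fasted for 4 h. They ate the methionine/choline-deficient (MCD) diet for 3 weeks, from 3 weeks after tamoxifen or vehicle. The methods give an age of 12 to 16 weeks for the mice fed this diet, and none at injection. No pool came from chow-fed mice, so all levels are those of livers on the MCD diet.

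Pools held 25271585 to 36238734 reads on genes. Levels are CPM (read counts scaled to the same library total) after TMM scaling, and fold changes compare *Mttp-IKO* with control. The hepatocyte markers *Alb*, *Apoa1* and *Ttr* summed to 47800 to 79731 CPM in control and 92372 to 149192 CPM in *Mttp-IKO* pools. These abundant hepatocyte mRNAs were present in every pool. edgeR called none of the 3, and DESeq2 called *Alb* (adjusted p = 0.00740) and *Apoa1* (0.0276) higher. *Ttr* went the other way, lower without overlap between genotypes (log2 fold change -0.55, adjusted p = 0.290 in edgeR and 0.221 in DESeq2). Liver *Mttp*, which an intestinal Cre should leave intact, differed by -0.06 on the log2 scale (adjusted p = 0.926, edgeR's quasi-likelihood test). Control pool 2 stood apart, with 448 CPM of striated muscle mRNAs (*Acta1*, *Ckm* and *Myh4*), against 52.9 in control pool 1 and 0.281 to 0.484 in the other pools. *Mttp-IKO* pool 3 had low levels of short mRNAs, described with the ligands.

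Chemokines are small secreted proteins that bind G protein-coupled receptors and steer leukocytes along a gradient. Each ligand draws the cells that carry its receptor: CCL2 acts on CCR2 of monocytes, CXCL1 and CXCL2 on CXCR2 of neutrophils, CXCL9 to CXCL11 on CXCR3 of T and NK cells, and CXCL13 on CXCR5 of B cells. In liver, hepatocytes, Kupffer cells, stellate cells and endothelial cells make ligands, and the CCL2 and CCR2 pair is known for bringing monocytes into the injured organ. In whole tissue, fewer cells of a type and less RNA per cell cannot be told apart.

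Sequence before the start site is given for 5 genes, because the 3 neutrophil and CXCR3 ligands share motifs and the other 2 are called genes without them. *Cxcl1* and *Cxcl2* are close neighbours whose mRNAs went in opposite directions, *Cxcl10* is an interferon-inducible ligand, *Cxcl13* had the largest rise among the members and *Ccr2* was called lower. The bases are those just upstream of the start in the RefSeq promoter table (GRCm38.p6), 5′ to 3′ on the gene's strand. For *Ccr2* the gene as counted begins earlier, at 124101950, so its printed bases lie inside the counted gene. Capitals mark a kappa B motif (GGGA, any 2 bases, TTCC), an interferon-stimulated response element (ISRE; GAAA, any 2 bases, GAAA) or a TATA motif (TATAAA), each searched on both strands.

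Cxcl1, chr5:90891095-90891244, + strand: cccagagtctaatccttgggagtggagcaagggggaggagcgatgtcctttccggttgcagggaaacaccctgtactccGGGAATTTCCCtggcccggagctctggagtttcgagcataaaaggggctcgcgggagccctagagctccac
Cxcl2, chr5:90903749-90903898, + strand: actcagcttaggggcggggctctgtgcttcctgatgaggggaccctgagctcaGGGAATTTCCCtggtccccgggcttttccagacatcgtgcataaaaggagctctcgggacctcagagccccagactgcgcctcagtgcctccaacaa
Cxcl10, chr5:92348890-92349139, - strand: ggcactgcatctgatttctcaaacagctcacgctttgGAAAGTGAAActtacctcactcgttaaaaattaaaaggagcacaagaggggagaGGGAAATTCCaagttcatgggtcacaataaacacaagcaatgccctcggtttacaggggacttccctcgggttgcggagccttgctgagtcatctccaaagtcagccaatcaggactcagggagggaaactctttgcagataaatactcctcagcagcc
Cxcl13, chr5:95956789-95956938, + strand: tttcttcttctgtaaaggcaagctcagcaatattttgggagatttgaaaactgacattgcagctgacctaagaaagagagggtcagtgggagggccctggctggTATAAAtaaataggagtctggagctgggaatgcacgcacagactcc
Ccr2, chr9:124102033-124102182, + strand: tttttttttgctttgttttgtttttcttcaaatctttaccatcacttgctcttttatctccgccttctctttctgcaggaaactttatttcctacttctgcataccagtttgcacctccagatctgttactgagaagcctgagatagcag

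*Cxcl1* and *Cxcl2* both hold the 11 bases GGGAATTTCCC, in which a forward and a reverse match overlap, beginning 71 bases before the start in *Cxcl1* and 97 in *Cxcl2*. In *Cxcl10* the ISRE begins 213 and the kappa B motif 159 bases before the start, and the TATA motif of *Cxcl13* begins 46 bases before it. Over windows from 250 bases before to 50 bases after the start, 23 members had 24 promoters in the table. The kappa B motif was in 3 of these 24 (12.5%: *Cxcl1*, *Cxcl2* and *Cxcl10*) and in 1.47% of all 32851 promoters. The ISRE was in 3 (*Ccl19*, *Cxcl10* and *Cxcl14*; 3.44% of all promoters), the TATA motif in 8 (13.6% of all) and the interferon-gamma-activated site TTCNNNGAA in 2 (*Ccl17* and *Cxcl14*; 8.30% of all). A match is a run of letters and not a measured binding site. The windows of *Cxcl13* and *Ccr2* hold none of the kappa B, ISRE or interferon-gamma-activated letters. The *Ccr2* window lies mostly inside the gene as counted, so the sequence before that gene's start was not searched.

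Most chemokine genes had lower mean levels in *Mttp-IKO* livers, and the clearest changes were in receptors and in a single ligand. *Ccr2* and *Ccr7* fell and *Cxcl13* rose, so 3 of the 27 tested members (11.1%) passed an adjusted p of 0.05 in edgeR's quasi-likelihood test, where 4.01% of all 17287 genes passed. Among all genes 3.09% passed as lower and 0.920% as higher. The mean was lower in *Mttp-IKO* for 21 members and higher for 6 (*Cxcl13*, *Cxcl1*, *Cxcl11*, *Ccl25*, *Ccl24* and *Cxcr6*), against a lower mean in 49.5% of all genes. The median log2 fold change was -0.96 over the members and 0.01 over all genes. Pools of the genotypes did not overlap in 12 of 27 members (44.4%; 9 lower, 3 higher), against 31.0% of all genes. An unadjusted p under 0.05 was reached by 15 members (55.6%) and by 23.0% of all genes. The calls rest on few pools. Without control pool 1, control pool 3, *Mttp-IKO* pool 1 or *Mttp-IKO* pool 2, edgeR called 0 members (9 to 17 with an unadjusted p under 0.05). Those fits called 0 to 55 of all genes, with 2476 to 4457 at an unadjusted p under 0.05. Leaving out control pool 2 gave 8 members called and 892 of 17784 genes, and leaving out *Mttp-IKO* pool 3 gave 4 and 864 of 17854. Without *Mttp-IKO* pool 2 edgeR called 0 genes of the whole table, members or not (3221 with an unadjusted p under 0.05), so no edgeR call was kept without that pool. Leaving out any pool also leaves fewer pools to test with, and DESeq2 and limma-voom were run with all pools only. With all pools DESeq2 called 12 members (11.5% of all genes), namely *Ccr2*, *Ccr7*, *Cxcr4*, *Ccl2*, *Ccl3*, *Ccl4*, *Ccl22*, *Cxcl9*, *Cxcl14* and *Cxcl16* lower and *Cxcl13* and *Cxcl1* higher, and limma-voom called 1 (*Ccr2*; 2.48% of all genes). Elsewhere in the text, called and passed refer to edgeR's test with all pools, unless another tool is named.

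**Figure D1:**
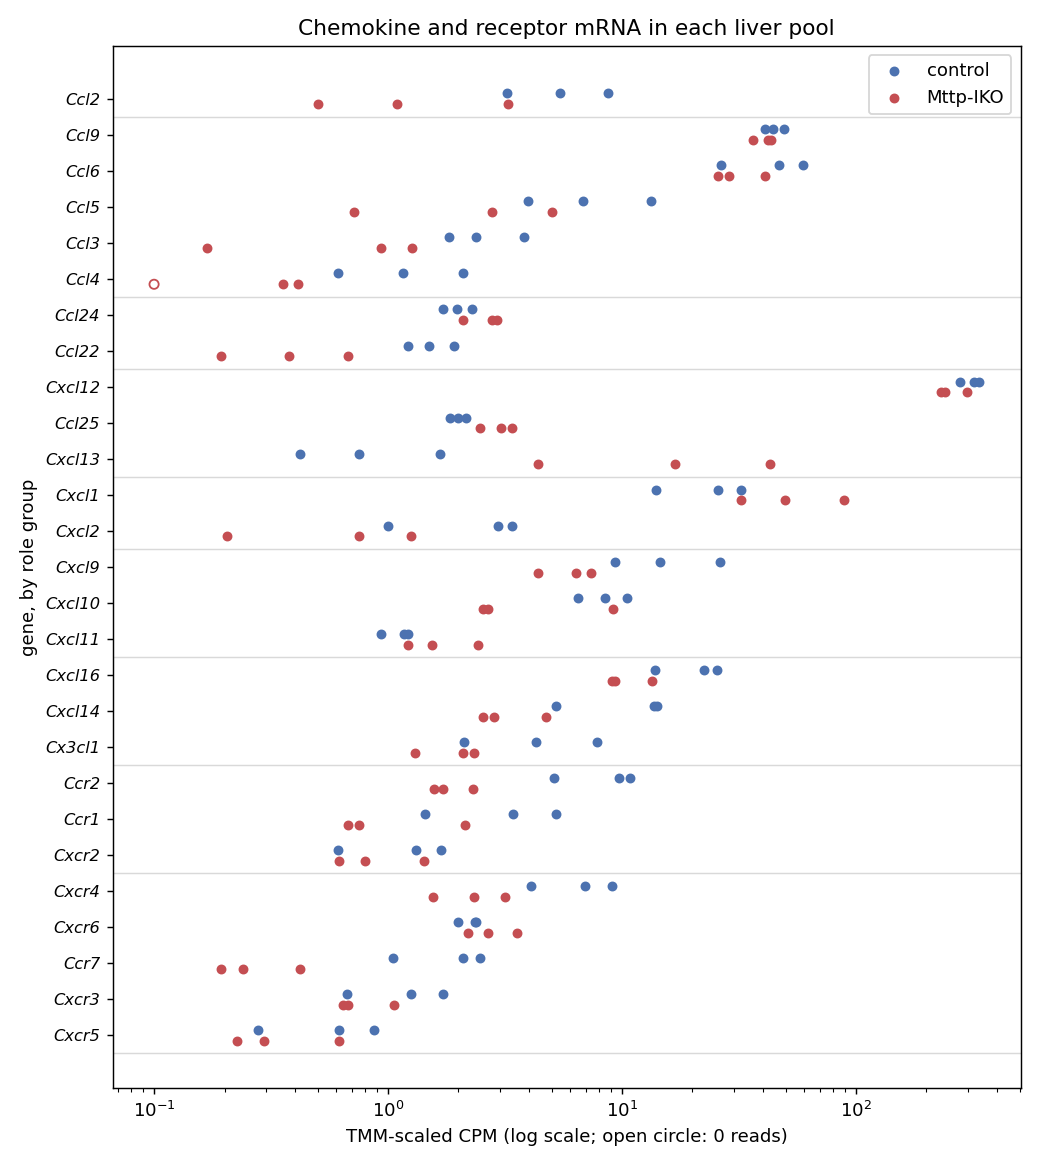
TMM-scaled CPM (log axis) of each of the 27 tested genes in the 3 control (blue) and 3 Mttp-IKO (red) pools, grouped by role. An open circle marks 0 reads. Cxcl12 is at 230 to 336 CPM in all pools, while Cxcl13 has its Mttp-IKO pools at 4.36 to 43.0 and its control pools at 0.422 to 1.66.

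Of 8 receptors 2 were called, both lower, and of 19 tested ligands 1 was called, higher. The medians of the log2 fold changes were close, -1.06 for receptors and -0.96 for ligands, and no test of the difference was run. *Ccr2* encodes the receptor through which monocytes leave the marrow and enter tissue. Its level was 10.8, 5.10 and 9.75 CPM in control pools 1 to 3 and 1.58, 1.71 and 2.31 CPM in the *Mttp-IKO* pools. Every *Mttp-IKO* pool lay below every control pool. The log2 fold change was -2.20 ± 0.33 (SE; adjusted p = 0.0192). The adjusted p was 0.0831 without control pool 1, 0.0811 without control pool 3, 0.0660 without *Mttp-IKO* pool 1 and 0.108 without *Mttp-IKO* pool 2, with log2 fold changes from -2.49 to -2.01 over all 6 omissions.

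*Ccr7* encodes the receptor that takes dendritic cells and naive T cells to lymph nodes. It was at 2.48, 1.05 and 2.09 CPM in the control pools and at 0.193, 0.240 and 0.419 CPM in the *Mttp-IKO* pools. The groups did not overlap, and the *Mttp-IKO* levels correspond to 6, 7 and 10 reads. The log2 fold change was -2.73 ± 0.48 (adjusted p = 0.0293), the largest fall among the members tested. Here too the adjusted p was above 0.05 without control pool 1 (0.115), control pool 3 (0.108), *Mttp-IKO* pool 1 (0.0792) or *Mttp-IKO* pool 2 (0.128). *Ccl19*, a ligand of CCR7, was too low to test. *Ccl21a*, *Ccl21b* and *Ccl21c*, the other ligands of CCR7, had 0 reads in every pool. If reads are independent, this allows up to about 3 reads, that is 0.0828 to 0.119 CPM before TMM scaling. These genes are near-identical copies, and the counting left out multi-mapping reads, so this bound covers uniquely placed reads and is no limit on their expression.

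*Cxcr4*, the receptor of CXCL12 on most leukocytes and on progenitors, was at 9.05, 4.10 and 6.97 CPM in the control pools and at 2.32, 3.16 and 1.55 CPM in the *Mttp-IKO* pools. The groups did not overlap, yet the log2 fold change of -1.51 ± 0.37 did not pass the test (adjusted p = 0.0630, 0.0327 without control pool 2 and 0.00231 in DESeq2). The remaining receptors overlapped between genotypes. *Ccr1*, which myeloid cells carry, was at 5.23, 1.44 and 3.40 CPM against 2.13, 0.754 and 0.671 CPM (log2 fold change -1.49, adjusted p = 0.182, and -2.23 without *Mttp-IKO* pool 1). *Cxcr2* of neutrophils, *Cxcr3* of activated T and NK cells and *Cxcr5* of B cells had log2 fold changes of -0.34, -0.61 and -0.63, with adjusted p of 0.708, 0.445 and 0.556. *Cxcr6*, found on liver-resident NKT and T cells, was the only receptor with a higher mean, at 1.98 to 2.37 CPM in control and 2.19 to 3.57 CPM in *Mttp-IKO* pools (0.33, adjusted p = 0.516). *Cxcr5* shares exonic bases with *Bcl9l* on the other strand, and it is not stated whether counting used the strand.

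**Figure D2:**
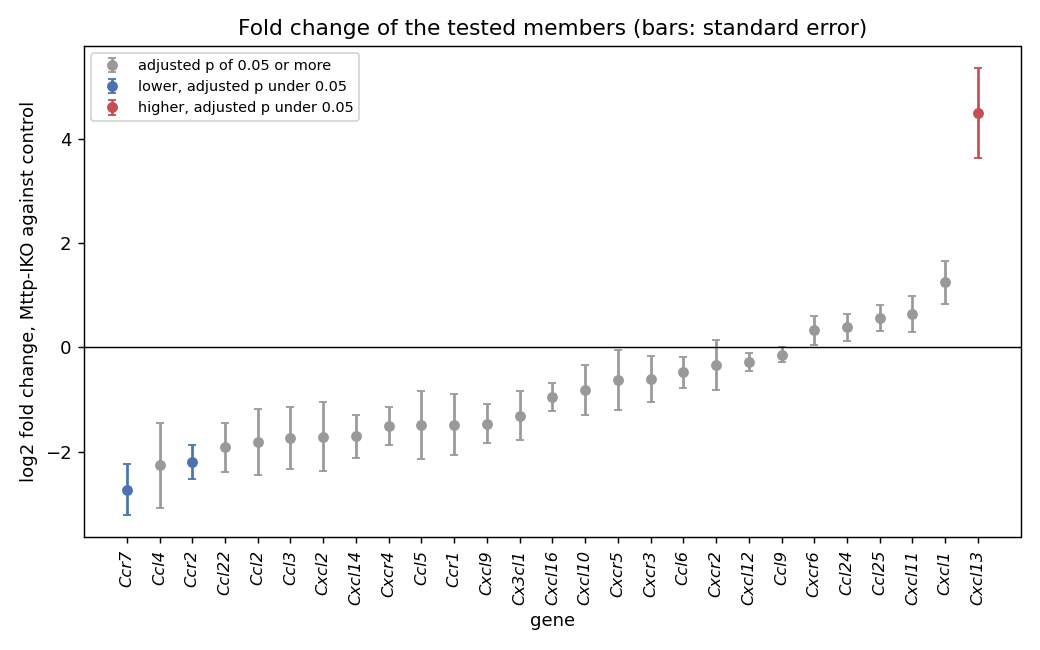
Log2 fold change (Mttp-IKO against control) of the 27 tested genes, with bars of the standard error and the genes in order of size. The genes run from Ccr7 at -2.73 to Cxcl13 at 4.50, and in edgeR's test Ccr2, Ccr7 and Cxcl13 passed an adjusted p of 0.05.

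*Cxcl13*, the ligand that organises B cell follicles through CXCR5, changed more than any other member. It had 0.422, 1.66 and 0.75 CPM in the control pools (17, 60 and 24 reads) and 43.0, 16.8 and 4.36 CPM in the *Mttp-IKO* pools (1334, 490 and 104 reads). The lowest *Mttp-IKO* pool was above the highest control pool, and the *Mttp-IKO* pools themselves spread widely. The ratio of the means was 22.6 and the log2 fold change 4.50 ± 0.86 (adjusted p = 0.0346). Without *Mttp-IKO* pool 1 the log2 fold change was 3.49 (adjusted p = 0.0736), and without control pool 2 it was 5.20 (0.0404). The adjusted p was also above 0.05 without control pool 1 (0.144), control pool 3 (0.145) or *Mttp-IKO* pool 2 (0.118), and in limma-voom (0.0919). The mRNA of its receptor, *Cxcr5*, stayed at 0.226 to 0.875 CPM in all pools.

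The other lymphoid and homing ligands changed little. *Cxcl12*, made by stromal, endothelial and stellate cells and the ligand of CXCR4, had the highest CPM of the ligands, with 278, 319 and 336 CPM in control and 230, 299 and 240 CPM in *Mttp-IKO* pools. The groups overlapped and the log2 fold change was -0.28 ± 0.18 (adjusted p = 0.390). *Ccl25*, the gut-homing ligand of CCR9, was at 1.83, 2.16 and 2.0 CPM in control and 2.48, 3.05 and 3.40 CPM in *Mttp-IKO* pools. Its groups did not overlap, but the change was small (0.57 ± 0.25, adjusted p = 0.223), and part of its exons is shared with *Elavl1* on the opposite strand.

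**Figure D3:**
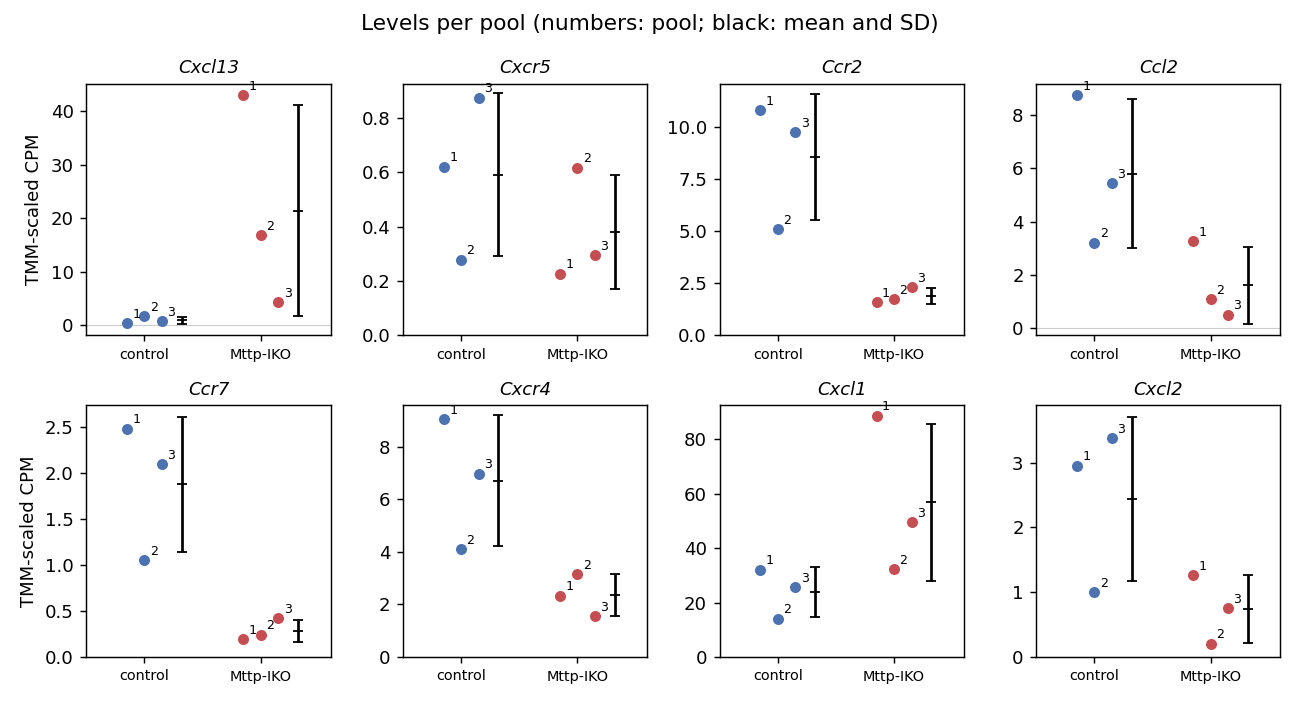
TMM-scaled CPM in each pool (numbers give the pool) with the mean and SD of each genotype in black, for genes described value by value. In the Cxcl13 panel the Mttp-IKO pools spread from 4.36 to 43.0 CPM, while in the Ccr2 panel they lie together at 1.58 to 2.31 CPM, below the lowest control pool at 5.10.

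The neutrophil ligands did not move together. *Cxcl1*, which hepatocytes and other liver cells release and which draws neutrophils through CXCR2, was at 32.1, 14.0 and 25.6 CPM in the control pools and at 88.8, 32.3 and 49.6 CPM in the *Mttp-IKO* pools. The groups were apart by a narrow margin, between the highest control pool and *Mttp-IKO* pool 2. The log2 fold change was 1.25 ± 0.41 (adjusted p = 0.126), and it passed only in DESeq2 (0.0240) and with the replicate number as a block (0.0299, or 0.0159 with the trend on gene length also removed). *Cxcl2*, which binds the same receptor and is typical of macrophages and neutrophils, was at 2.95, 0.998 and 3.37 CPM in control and 1.26, 0.206 and 0.755 CPM in *Mttp-IKO* pools. These groups overlapped (log2 fold change -1.71 ± 0.65, adjusted p = 0.172, and -2.37 without *Mttp-IKO* pool 1).

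The genes of *Cxcl1* and *Cxcl2* lie 10.8 kb apart on chromosome 5. The ratio of *Cxcl1* to *Cxcl2* CPM in the same pool was 7.59 to 14.1 in control pools and 65.7 to 157 in *Mttp-IKO* pools. This ratio was chosen after the values had been seen and is given without a test. *Cxcl5*, another CXCR2 ligand in the same cluster, had 52, 10 and 35 reads in control and 7, 4 and 4 reads in *Mttp-IKO* pools. These did not overlap but were too few to test with all pools. Without control pool 2 edgeR tested *Cxcl5* and called it lower, in a fit that called 892 of 17784 genes. Neutrophil markers (*S100a8*, *S100a9*, *Ly6g*, *Mpo* and *Elane*) summed to 2.30 to 8.38 CPM in control and 2.30 to 7.87 CPM in *Mttp-IKO* pools, with none called and none at 0 in all pools.

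Among the CXCR3 ligands, which interferon induces, only *Cxcl9* had groups without overlap. It was at 26.2, 9.32 and 14.6 CPM in control and 6.38, 7.37 and 4.36 CPM in *Mttp-IKO* pools, with a log2 fold change of -1.46 ± 0.38 (adjusted p = 0.0732, 0.0319 without control pool 2 and 0.00417 in DESeq2). *Cxcl10* was at 6.46 to 10.5 CPM in control and 2.54 to 9.12 CPM in *Mttp-IKO* pools (-0.82, adjusted p = 0.355, and -1.70 without *Mttp-IKO* pool 1), where *Mttp-IKO* pool 1 was within the control range and the other pools were below it. *Cxcl11* had the opposite sign, 0.937 to 1.22 CPM against 1.22 to 2.42 CPM (0.64, adjusted p = 0.312), and the deposited table gives it as a polymorphic pseudogene. Exons of *Cxcl10* overlap *Art3*, and those of *Cxcl11* overlap *Gm2673*, on the other strand. The markers of T and NK cells, *Cd3e*, *Cd3g*, *Cd8a*, *Nkg7* and *Klrb1c*, summed to 3.63 to 8.11 CPM in control and 1.93 to 3.57 CPM in *Mttp-IKO* pools (exact permutation p = 0.1, two-sided, the smallest that 3 against 3 pools can give), with none called and none at 0 in all pools. The part of these cells in the *Cxcl9* values was not tested.

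*Cxcl14* and the membrane-bound ligands were lower on average. *Cxcl14*, a ligand of epithelia and stellate cells whose receptor is debated, was at 14.1, 5.24 and 13.7 CPM in control and 2.55, 2.85 and 4.74 CPM in *Mttp-IKO* pools. Control pool 2 came near the highest *Mttp-IKO* pool, without overlap. The log2 fold change was -1.71 ± 0.41 (adjusted p = 0.0622, the lowest among members not called, 0.0134 without control pool 2 and 0.00143 in DESeq2). *Cxcl16*, a transmembrane ligand of CXCR6 and a scavenger of oxidised lipoprotein, was at 25.4, 13.9 and 22.4 CPM in control and 13.4, 9.02 and 9.31 CPM in *Mttp-IKO* pools (-0.96 ± 0.27, adjusted p = 0.0874, 0.0391 without control pool 2 and 0.0216 in DESeq2). Its exons overlap *Zmynd15* on the other strand. *Cx3cl1*, the transmembrane ligand of CX3CR1, overlapped between genotypes, at 2.11 to 7.81 CPM in control and 1.30 to 2.32 CPM in *Mttp-IKO* pools (-1.31, adjusted p = 0.154).

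Stellate cell markers (*Lrat*, *Rgs5*, *Reln* and *Dcn*) summed to 547 to 719 CPM in control and 411 to 491 CPM in *Mttp-IKO* pools, with *Lrat* called lower (log2 fold change -1.71, adjusted p = 0.0181). All 4 were above 0 in some pool, and their part in the *Cxcl14* values was not tested.

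The 6 tested monocyte and inflammatory CC ligands all had lower means. edgeR called none of them (*Ccl2*, *Ccl3* and *Ccl4* had an unadjusted p under 0.05), and DESeq2 called *Ccl2*, *Ccl3* and *Ccl4* lower (adjusted p = 0.0255, 0.0307 and 0.0362). *Ccl2*, the main monocyte attractant, was at 8.75, 3.22 and 5.43 CPM in control and 3.26, 1.10 and 0.503 CPM in those of *Mttp-IKO*, a log2 fold change of -1.82 ± 0.63 (adjusted p = 0.143). Control pool 2 fell just below *Mttp-IKO* pool 1, so the groups overlapped, and without that *Mttp-IKO* pool the log2 fold change was -2.83 (adjusted p = 0.0718). *Ccl3*, a CCR1 ligand, was at 3.82, 1.83 and 2.37 CPM against 0.935, 1.27 and 0.168 CPM, and did not overlap (-1.73 ± 0.60, adjusted p = 0.139). *Ccl4*, a close relative of *Ccl3*, was at 2.08, 0.610 and 1.16 CPM against 0.355, 0.412 and 0 CPM (-2.27 ± 0.81, adjusted p = 0.152), the last pool having no read. *Ccl5*, which T cells, NK cells and macrophages make, was at 3.96 to 13.3 CPM against 0.713 to 5.04 CPM (-1.49, adjusted p = 0.220).

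*Ccl6* and *Ccl9*, ligands of CCR1 that resting myeloid cells make, were far more abundant and differed less. *Ccl6* was at 26.5 to 59.2 CPM in control and 25.7 to 40.7 CPM in *Mttp-IKO* pools (-0.48, adjusted p = 0.382). *Ccl9* was the steadiest of the CC ligands, at 40.9 to 49.3 CPM against 36.2 to 43.4 CPM (-0.14, adjusted p = 0.610). Both genes lie with *Ccl5*, *Ccl3* and *Ccl4* within 138.9 kb of chromosome 11, from 83525778 to 83664683 (GRCm38), so members of 1 cluster had log2 fold changes from -2.27 to -0.14.

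Markers of recruited macrophages had lower means in *Mttp-IKO* pools, with overlap between genotypes in *Spp1*. *Trem2*, *Gpnmb*, *Spp1*, *Itgam* and *Ly6c2* summed to 242 to 771 CPM in control and 102 to 169 CPM in *Mttp-IKO* pools (exact permutation p = 0.1). This p is not particular to them: the T and NK cell, stellate and small intestine sums, also lower, and the hepatocyte sum, higher, had the same p. *Trem2* (log2 fold change -2.62, adjusted p = 0.0293) and *Ly6c2* (-1.84, adjusted p = 0.0471) were called lower. The sum of the Kupffer cell markers *Clec4f*, *Vsig4*, *Timd4*, *Cd5l* and *Marco* overlapped, at 288 to 426 CPM against 222 to 552 CPM. *Timd4* was called higher (1.16, adjusted p = 0.0425). The others were not called, *Marco* and *Vsig4* with higher means (1.31 and 0.12) and *Cd5l* and *Clec4f* with lower ones (-0.74 and -0.19). All 10 genes had reads, and their part in the values of *Ccr2* and its ligands was not tested.

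The ligands of CCR4 and CCR3 were weak. *Ccl22*, which dendritic cells and macrophages make to draw regulatory T cells, was at 1.91, 1.22 and 1.5 CPM in control and 0.193, 0.377 and 0.671 CPM in *Mttp-IKO* pools. The groups did not overlap, and the log2 fold change was -1.92 ± 0.47 (adjusted p = 0.0657, 0.0383 without *Mttp-IKO* pool 3 and 0.00505 in DESeq2). *Ccl24*, an eosinophil attractant made by macrophages, had a mean of 1.99 ± 0.28 CPM (SD, n = 3) in control and 2.59 ± 0.44 CPM in *Mttp-IKO* pools (0.38, adjusted p = 0.428). The receptors *Ccr4* and *Ccr3* had 16 and 19 reads over all pools. Of the dendritic cell markers *Flt3*, *Xcr1*, *Clec9a* and *Zbtb46*, which summed to 25.5 to 32.7 CPM in control and 21.4 to 30.9 CPM in *Mttp-IKO* pools, edgeR called *Flt3* lower (-2.37, adjusted p = 0.0241), and none was at 0 in all pools. *Xcr1* was at 1.42 ± 0.77 CPM in control and 0.343 ± 0.25 CPM in *Mttp-IKO* (SD, n = 3), without overlap (-2.08, adjusted p = 0.0974, or 0.0178 in DESeq2). The more abundant *Clec9a* and *Zbtb46* had higher means and overlapped, with log2 fold changes of 0.22 and 0.14 (adjusted p = 0.649 and 0.626).

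The 6 ligands too low to test had at most 52 reads in any pool. *Ccl7* had 36, 4 and 8 reads in control and 12, 4 and 4 in *Mttp-IKO* pools, and *Ccl19* had 14, 2 and 4 against 6, 4 and 1. *Ccl8* (0 to 8 reads), *Ccl12* (0 to 6) and *Ccl17* (0 to 12) had at least 1 pool without a read. No difference in these 5 genes was detectable with these counts. For *Ccl19*, multi-mapping reads were also left out, so its counts are no limit on its expression.

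Compared per gene length, the ligand mRNAs made up a similar total in both genotypes with a different make-up. The sum over 25 ligands was 155 ± 37.6 CPM per kb (SD, n = 3) in control and 163 ± 51.3 in *Mttp-IKO* pools, a difference smaller than the spread between pools. *Cxcl12* held the largest mean share in control, 25.9 ± 8.06%, and 20.7 ± 7.26% in *Mttp-IKO*. *Cxcl1* held 15.8 ± 2.59% in control and 35.6 ± 9.33% in *Mttp-IKO*, the largest mean share there. *Cxcl13* held 0.191 to 1.24% in control pools and 2.85 to 16.5% in *Mttp-IKO* pools. *Ccl6* held 15.5 ± 2.34% and 11.0 ± 1.05%, and *Ccl5* 5.12 ± 1.99% and 1.91 ± 1.73%. Without *Cxcl12* and *Cxcl13* the mean sums were 116 CPM per kb in control and 113 in *Mttp-IKO*. Both still include *Cxcl1*, with means of 25.1 CPM per kb in control and 59.7 in *Mttp-IKO*. The remaining ligands therefore had a lower mean sum in *Mttp-IKO*. Shares of 1 pool add up to the whole, so a rise in a single ligand lowers the others, and the shares are given without a test.

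**Figure D4:**
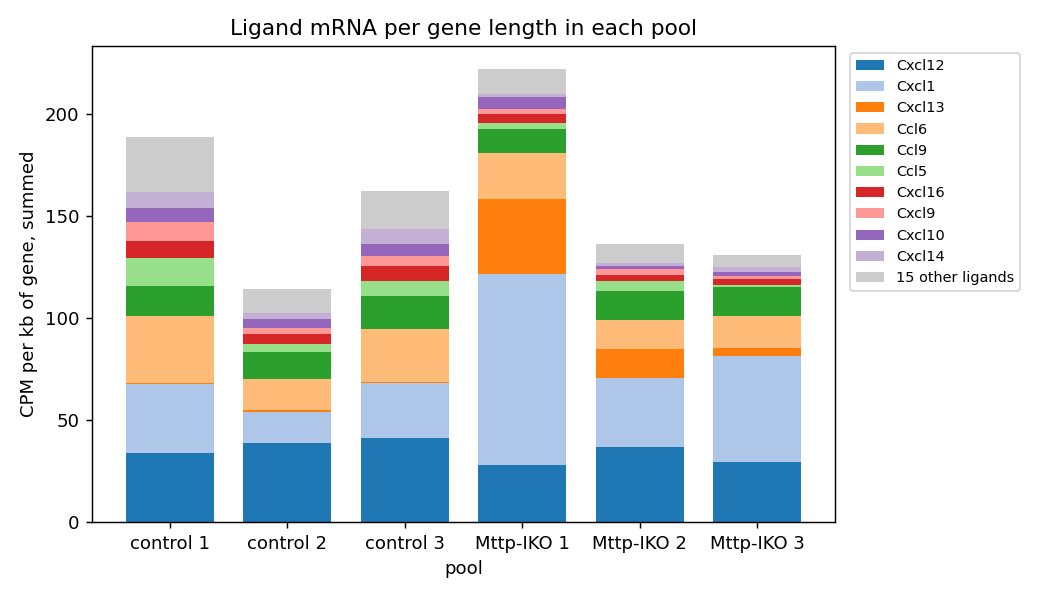
CPM per kb of gene length, summed over the 25 ligands and stacked by ligand, in each of the 6 pools. The stacks reach 114 to 188 in control and 131 to 222 in Mttp-IKO pools, with a larger Cxcl1 part in each Mttp-IKO pool.

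Further genes of the chemokine system, from a list of 57 other ligands, receptors, decoy receptors, signalling and processing genes, had 41 tested. Of these 5 (12.2%) passed the test, all lower, against 4.01% of all genes, and 36 (87.8%) had a lower mean, against 49.5%. Pools did not overlap in 14 (34.1%), all lower, against 31.0% of all genes in either direction and 16.5% as lower. *Cx3cr1*, the fractalkine receptor of monocytes and resident macrophages, fell from 9.0 ± 2.7 to 1.3 ± 0.36 CPM (SD, n = 3; log2 fold change -2.78, adjusted p = 0.0151). The other 4 act downstream of the receptors in leukocytes: *Dock2*, a Rac exchange factor of migrating cells (-1.40, adjusted p = 0.0364), its partner *Elmo1* (-1.16, 0.0482), *Pik3cg*, the catalytic subunit of the G protein-driven PI3 kinase (-1.19, 0.0440), and *Plcb2*, a phospholipase C (-1.17, 0.0489). Without control pool 1, control pool 3, *Mttp-IKO* pool 1 or *Mttp-IKO* pool 2, edgeR called 0 (11 to 18 with an unadjusted p under 0.05). Without control pool 2 it called 10 and without *Mttp-IKO* pool 3 it called 2, while with all pools DESeq2 called 12 and limma-voom 1. Over all genes, edgeR called 0 to 55 in the fits with 0 called here. It called 892 of 17784 genes without control pool 2 and 864 of 17854 without *Mttp-IKO* pool 3. With all pools DESeq2 called 11.5% of all genes and limma-voom 2.48%.

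Of the other receptors that bind a member ligand, *Ccr9* and *Ackr3* did not pass the test. *Ccr9*, the receptor of CCL25, was at 2.10 ± 0.31 CPM in control and 1.64 ± 0.34 CPM in *Mttp-IKO* (SD, n = 3; log2 fold change -0.36, adjusted p = 0.50). *Ackr3*, a scavenger of CXCL12, was at 2.60 ± 0.48 and 1.31 ± 0.16 CPM, without overlap (-0.99, adjusted p = 0.0907).

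Levels within a genotype differed in ways that bear on these values. Control pool 2 was the lowest control in 21 of the 27 tested members and in 38.3% of all genes, and it had the lowest recruited macrophage sum, 242 CPM against 763 and 771. In *Ccl2*, *Cxcl9*, *Cxcl14* and *Cxcl16* it was the control pool nearest to the *Mttp-IKO* pools. *Mttp-IKO* pool 3 was the lowest of its genotype in 11 members and in 40.1% of all genes. Short mRNAs were lower in that pool. Over protein-coding genes, its median log2 difference from the other *Mttp-IKO* pools was -0.93 at 300 to 1000 nt and -0.40 at 1000 to 2000 nt. It was -0.09 at 2000 to 4000 nt and 0.18 above, all on CPM with 0.5 added. Of the 4 tested ligands under 1000 nt, *Ccl5* differed by -1.81, *Ccl3* by -1.25, *Ccl4* by -0.82 and *Cxcl1* by -0.11. Ligands a little longer went both ways, with *Cxcl2* (1054 nt) at 0.17, *Ccl2* (1138 nt) at -1.29 and *Cxcl13* (1172 nt) at -2.50. With the trend on length removed, *Cxcl13* had a log2 fold change of 4.6 (adjusted p = 0.0278), *Ccr2* of -2.14 (0.0184) and *Ccr7* of -2.57 (0.0340).

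**Figure D5:**
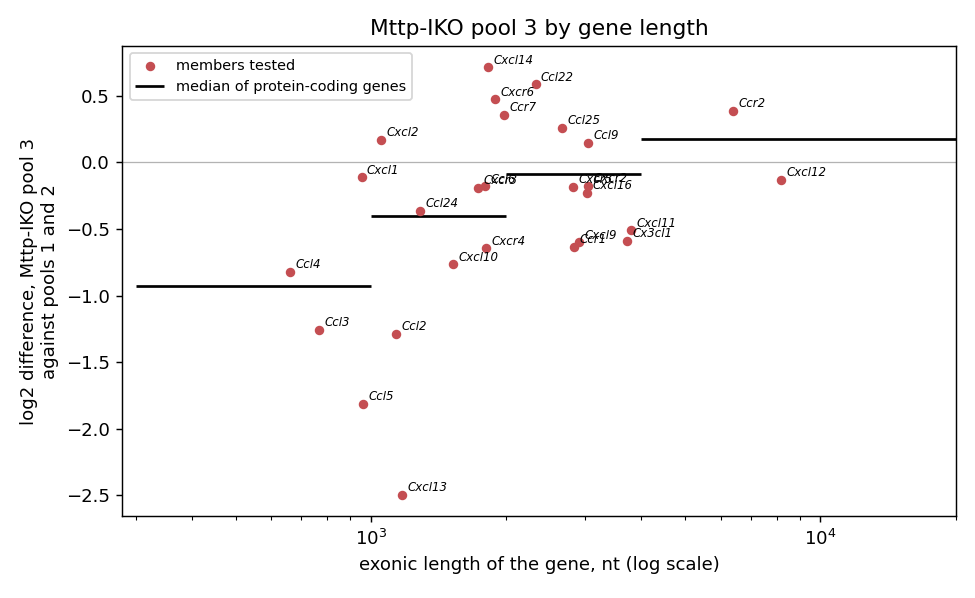
Log2 difference of Mttp-IKO pool 3 from the other Mttp-IKO pools against exonic gene length in nt (log axis), for the tested chemokine and receptor genes. Lines give the median of protein-coding genes in each length class. The class of 300 to 1000 nt has a median of -0.93, and Cxcl13 lies at -2.50.

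The members lie in 18 groups along the genome when genes less than 200 kb apart on GRCm38 are joined, 6 of them with 3 or more members. In the receptor cluster of chromosome 9 (123806477 to 124113557), *Ccr2* fell, while *Cxcr6* had a log2 fold change of 0.33 and *Ccr1* of -1.49. In the cluster of *Cxcl5*, *Cxcl1* and *Cxcl2* on chromosome 5 (90759299 to 90905909), and in that of *Cxcl9*, *Cxcl10* and *Cxcl11* (92321331 to 92365485), means of both signs stood side by side. *Cxcl13* lies on the same chromosome at 95956928 to 95961067, 3591 kb from the nearest member. *Ccr7* stands alone on chromosome 11 at 99144196 to 99155077.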

How the data were processed

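Liver RNA from 3 control and 3 *Mttp-IKO* pools was sequenced after ribosomal RNA depletion. The authors aligned reads with STAR 2.5.1a to the Ensembl release 76 assembly (GRCm38) and counted unambiguous reads per gene with featureCounts 1.4.6-p5, and they deposited the read counts without normalization, beside CPM and RPKM values that were not tested here. Strand use in counting is not given in the sources used here. Multi-mapping reads were not counted, which lowers genes with near-identical copies, such as *Ccl19* and the *Ccl21* genes.

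Repeated lines of the series table (276) were dropped. Genes passing edgeR's filterByExpr (minimum count 10, minimum total 15; 17287 genes) were scaled by TMM (factors 0.898 to 1.11) and compared with glmQLFit and glmQLFTest of edgeR 4.0.16 (R 4.3.3), with Benjamini-Hochberg adjustment over all genes tested and a threshold of 0.05. The SE is the log2 fold change divided by the square root of F. Marker sums were compared by exact permutation over pools. A replicate is a pool of RNA, so p-values measure the spread between pools, and pooling hides that between mice. A count of 0 allows up to about 3 reads, for counting error only and if reads are independent. Genes with 2 reads (1663 to 1805 per pool) outnumbered those with 1 (812 to 1025), so reads of weak genes were mostly even. Such reads may not be independent, in which case this bound is too low.

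Promoters came from RefSeq (GRCm38.p6), and exon overlaps from GENCODE M21. The members, gene lists and tests were chosen with earlier results of these data known. Genes given value by value are those called, those without overlap, and the most abundant of each other role group; named others are called genes of the chemokine system list, receptors of member ligands and cell type markers. A few further genes were named after their values were seen. Some genes of the lists, and a marker sum that needs one of them, are not reported here. Alternatives were DESeq2 1.42.0, limma-voom (limma 3.58.1), other scalings and filters, a replicate block, removal of the length trend (loess, span 0.3), protein-coding genes only, and omission of each pool. The edgeR test was checked on simulated counts. Same-numbered pools correlated by 0.139, 0.112 and 0.00698, so numbers were not taken as pairs. Lists without a value in the text were endothelial (180 to 251 CPM in control, 224 to 251 in *Mttp-IKO* pools), cholangiocyte (26.7 to 40.8, 19.7 to 36.2), small intestine (33.6 to 41.5, 11.0 to 32.7) and mesothelial markers (7.24 to 17.2, 4.32 to 10.6). Figures were drawn with matplotlib 3.10.9.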

Additional observations from a re-analysis of the deposited data

How the results depend on the processing

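No tested member changed direction under any of 17 alternatives. Of the single-member results, 417 kept their side of the threshold, 14 lost it and 24 gained it. Members called lower (2) were 5 with total counts only, 6 without a filter, 10 in DESeq2, 1 in limma-voom, 3 with the block and the length trend removed, and 0 to 7 when a pool was left out. Members called higher (1) were 2 in DESeq2, 0 in limma-voom (15 of 27 at an unadjusted p under 0.05, either direction), 2 with the replicate block, 2 with the block and the length trend removed, and 0 to 1 when a pool was left out. Over all genes, lower calls (535) were 907 with total counts only, 1338 in DESeq2, 312 in limma-voom and 0 to 771 when a pool was left out, and higher calls (159) were 657 in DESeq2, 353 with the length trend removed, 311 with the block as well and 0 to 302 when a pool was left out; without *Mttp-IKO* pool 2 edgeR called 0 genes, with 3221 at an unadjusted p under 0.05. Calls in the other chemokine system genes (5) were 8 with total counts only, 10 without a filter, 12 in DESeq2, 1 in limma-voom, 2 with the replicate block, 3 with the length trend removed, 3 with both, and 0 to 10 when a pool was left out. The cause of these differences was not tested. The share of lower calls was 77.1% and became 89.0% with total counts only and 59.0% with the length trend removed, and these scalings moved the median of all genes to -0.17 and 0.12. With the replicate block 592 genes were called against 694, and every pool but *Mttp-IKO* pool 3 correlated best with the pool of its own number, which is a hint from the data and not from the design. Low read counts limit the 6 ligands not tested with all pools, and left-out multi-mapping reads also lower *Ccl19*.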
